A study of Homo sapiens with 6 samples.

Results

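The genes described here are the 5 NF-κB subunits (RELA, RELB, REL, NFKB1 and NFKB2) and 5 inhibitor-of-κB (IκB) proteins: the classical IκBs NFKBIA, NFKBIB and NFKBIE and the nuclear IκBs NFKBIZ and BCL3. They were taken from the deposited expression table by their listed symbols, and all 10 were found among its 27945 genes. Levels were measured by bulk RNA sequencing in HaCaT, a spontaneously immortalised line of human keratinocytes. Knockout cells (KO) are labelled as null for MAPK14, which encodes the kinase p38α, and wild-type cells (WT) are unedited HaCaT. Each genotype has 2 libraries after IL-1α for 4 h and 1 unstimulated library after PBS for 4 h, so 6 libraries form 4 groups. The labels give no IL-1α dose and no description of the MAPK14 edit, and do not say whether the KO cells are a clone or a pool. They also do not say whether replicates came from separate cultures, and p-values here therefore cover only the spread among these libraries, which may be technical.

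NF-κB transcription factors are dimers of the 5 subunits. RELA, RELB and REL carry a transactivation domain, while NFKB1 and NFKB2 encode the precursors p105 and p100, which are processed to p50 and p52. In resting cells the classical IκBs hold dimers in the cytoplasm. IL-1 binding to its receptor activates the IκB kinase, the IκBs are degraded, and the freed dimers induce genes for their own inhibitors. The nuclear IκBs NFKBIZ (IκBζ) and BCL3 instead bind p50 or p52 on chromatin and adjust which targets are transcribed. In keratinocytes IκBζ is known as a mediator of cytokine-induced antimicrobial and chemokine genes.

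Several members have the letters of a κB site close to their transcription start, which is why some windows are shown. RefSeq promoter windows (GRCh38.p14, 250 bases before to 50 after a start, 300 bases each) matched 8 of the 10 members with 14 windows in all. RELB and NFKBIE had no entry. The κB consensus was searched on both strands, and capitals mark every base covered by a match, so overlapping matches form one longer run. The windows of NFKBIA, NFKB2 and NFKBIZ belong to the 3 members that passed the test with both genotypes combined. NFKB2 has 3 windows and NFKBIZ and RELA have 2 each, and 1 is shown per gene. Of the NFKB2 windows not shown, 1 has no match. The NFKBIZ window not shown has a match of other letters, and the RELA window not shown has none. The RELA window, with no match, belongs to a subunit with a small response, as does the REL window, which has matches.
NFKBIA, chr14:35404700-35404999, minus strand: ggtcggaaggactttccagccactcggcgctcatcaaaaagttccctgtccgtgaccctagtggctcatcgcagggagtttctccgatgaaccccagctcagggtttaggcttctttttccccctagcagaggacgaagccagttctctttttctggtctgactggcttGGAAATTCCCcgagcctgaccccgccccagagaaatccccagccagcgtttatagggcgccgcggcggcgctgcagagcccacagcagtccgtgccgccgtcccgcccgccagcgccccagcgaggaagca
NFKB2, chr10:102394328-102394627, plus strand: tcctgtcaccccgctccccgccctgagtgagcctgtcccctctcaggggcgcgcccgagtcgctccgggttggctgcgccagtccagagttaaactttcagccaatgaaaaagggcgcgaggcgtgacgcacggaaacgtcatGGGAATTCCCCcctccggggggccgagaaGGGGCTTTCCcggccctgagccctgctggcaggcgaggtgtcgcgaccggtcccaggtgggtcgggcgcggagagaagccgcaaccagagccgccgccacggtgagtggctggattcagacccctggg
NFKBIZ, chr3:101827740-101828039, plus strand: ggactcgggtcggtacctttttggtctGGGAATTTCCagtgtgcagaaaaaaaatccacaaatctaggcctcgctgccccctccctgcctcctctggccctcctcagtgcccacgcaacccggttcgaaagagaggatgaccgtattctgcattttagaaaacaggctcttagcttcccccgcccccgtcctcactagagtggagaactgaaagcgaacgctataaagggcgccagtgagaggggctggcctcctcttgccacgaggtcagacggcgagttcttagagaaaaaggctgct
RELA, chr11:65662867-65663166, minus strand: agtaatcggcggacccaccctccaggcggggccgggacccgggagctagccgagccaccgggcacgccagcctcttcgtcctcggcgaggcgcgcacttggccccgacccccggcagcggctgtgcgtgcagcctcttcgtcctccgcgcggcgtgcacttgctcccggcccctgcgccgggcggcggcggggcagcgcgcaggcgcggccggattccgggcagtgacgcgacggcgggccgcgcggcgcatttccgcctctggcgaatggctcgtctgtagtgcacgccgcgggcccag

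For 4 other members 1 match each is shown with 10 bases on either side, on the plus strand of the same build. In REL and NFKBIB a second match overlaps the one in capitals by all but 1 base, and NFKBIB has a further, separate match that begins 38 bases after the start and is not shown.
NFKB1, chr4:102501300-102501329: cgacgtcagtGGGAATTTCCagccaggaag
REL, chr2:60881518-60881547: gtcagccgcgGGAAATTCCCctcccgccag
NFKBIB, chr19:38899931-38899960: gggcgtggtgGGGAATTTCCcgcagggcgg
BCL3, chr19:44748700-44748729: ccggctgcagGGGAAGTCCCggcgcccggc

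A κB consensus match was present in 9 of the 14 windows (64.3%) and in at least 1 window of 7 of the 8 genes, the exception being RELA. Of all 35116 RefSeq windows of this length, 3956 (11.3%) had a match, and by gene 3619 of 27305 symbols (13.3%) had one in at least 1 window. One 10-base sequence, GGGAATTTCC, read on either strand, occurred in 5 of the 14 member windows, those of NFKB1, REL, NFKBIA, NFKBIB and NFKBIZ, and in 51 of all 35116 windows (0.145%). This sequence was singled out after the matches were seen, and the shares carry no test. A match describes these letters only. Distances are from the start belonging to the window that held the letters. They stood 81 bases before it in NFKBIA, 223 in NFKBIZ, 49 in NFKB1, 46 in REL and 28 in NFKBIB. NFKB1, NFKBIB and NFKBIZ each have another window, which lacks this sequence. The IL-1α responses given next were large for NFKBIA and NFKBIZ and close to 0 for NFKBIB. The NFKBIB value in WT depended on the processing and was 0.62 on the log2 scale with a trend on transcript length removed. With the genotypes averaged, REL, with this sequence, had a log2 difference of 0.32 (95% interval -0.22 to 0.86). RELA, with no match, had 0.36 (0.02 to 0.69), and neither passed. Whether a match bears on the response was not tested.

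Levels are reads per kilobase of transcript, scaled to library depth (RPKM), as deposited by the authors. Recovered depth was 16294230 to 34967811 reads per library, and 80.1% to 83.2% of reads lay in exons. Behind the members' values stood between 163 reads (BCL3, unstimulated WT) and 9507 reads (NFKB2, KO IL-1α replicate 2). The 2 IL-1α libraries correlated across genes at 0.969 in KO and at 0.985 in WT. MAPK14, the targeted gene, was still transcribed, at 11.0 and 7.41 RPKM in the KO IL-1α libraries and 11.3 RPKM in unstimulated KO, against 13.3 and 14.8 RPKM in the WT IL-1α libraries and 14.4 RPKM in unstimulated WT. The basal keratins KRT14 and KRT5 averaged 1330 and 848 RPKM over the libraries. All 4 leukocyte and all 3 melanocyte markers stayed under 1 RPKM. The 4 fibroblast markers summed to 1.07 and 0.576 RPKM in the KO IL-1α libraries and 1.20 RPKM in unstimulated KO, against 1.58 and 1.49 RPKM in the WT IL-1α libraries and 2.06 RPKM in unstimulated WT. Among them LUM was at most 0.016 RPKM in KO libraries, against 0.613 to 1.19 RPKM in WT libraries, COL1A1 reached 1.20 RPKM, and COL1A2 and PDGFRA stayed at or under 0.055 RPKM. Of the 3 endothelial markers PECAM1 was 0 in all 6 libraries and VWF at most 0.374 RPKM. CDH5, the other one, had 10.3 and 1.84 RPKM in the KO IL-1α libraries against 2.94 RPKM in unstimulated KO, and 11.4 and 11.8 RPKM in the WT IL-1α libraries against 1.45 RPKM in unstimulated WT. The bearing of CDH5 and LUM on the members was not tested.

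No member passed the test of the IL-1α response in KO or in WT alone. NFKBIA, NFKBIZ and NFKB2 passed as higher when both genotypes were averaged, a comparison added after the data were seen. These calls did not hold without a filter on low values. In the same average NFKB1 and RELB had log2 differences above 1 without passing. RELA, REL, NFKBIB, NFKBIE and BCL3 had smaller differences. No difference between the responses of KO and WT was called for any member. Differences were tested with limma on log2(RPKM + 0.5) over the 12925 genes that reached 1 RPKM in at least 1 library, and a call needs a Benjamini-Hochberg adjusted p under 0.05. On this scale a log2 difference of 1 is close to a doubling, somewhat understated for low genes. Each unstimulated group is 1 library, so the spread rests on the 2 pairs of IL-1α libraries (2 residual degrees of freedom). In bulk RNA, fewer cells with a transcript and less transcript per cell cannot be told apart.

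**Figure D1:**
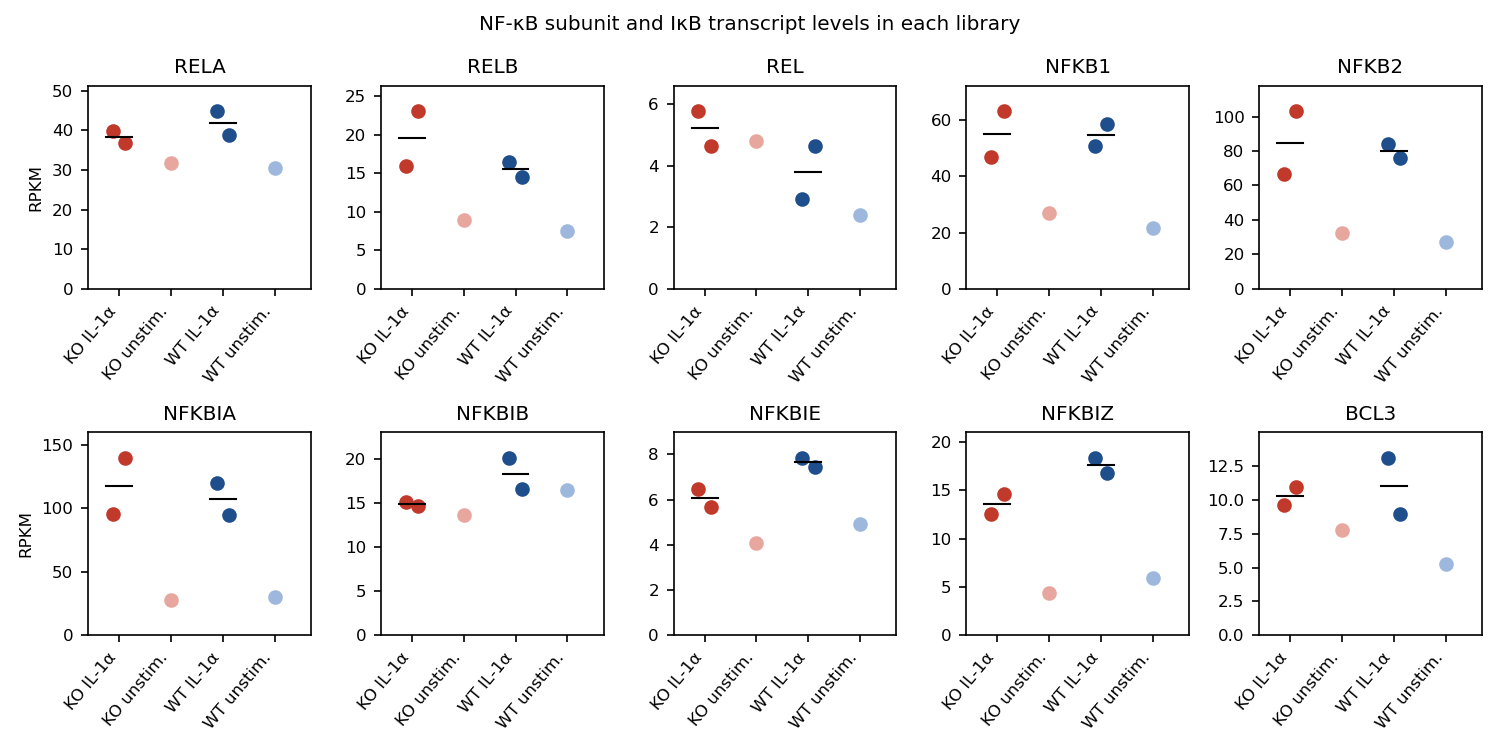
RPKM of each of the 10 members (vertical axis, linear from 0) in the 6 libraries. Points are libraries and bars are means of the 2 IL-1α libraries of a genotype. NFKBIA, NFKBIZ, NFKB2, NFKB1 and RELB sit well above the unstimulated library of their genotype under IL-1α, while NFKBIB and RELA shift little.

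RELA, which encodes p65, the main transactivating subunit of the canonical pathway (chr11:65421067-65430443, minus strand, hg19), was among the most abundant members at rest. It had 39.9 and 36.8 RPKM in the KO IL-1α libraries, against 31.8 RPKM in unstimulated KO, and 44.8 and 38.9 RPKM in the WT IL-1α libraries, against 30.6 RPKM in unstimulated WT. All 4 IL-1α libraries lay above both unstimulated ones, by 1.16-fold to 1.47-fold. The log2 difference was 0.27 ± 0.20 (SE, limma adjusted p = 1) in KO and 0.44 ± 0.20 (limma adjusted p = 0.301) in WT.

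RELB, the subunit that pairs mainly with p52 in the non-canonical pathway (chr19:45504707-45541456, plus strand), had 16.0 and 23.0 RPKM in the KO IL-1α libraries, against 8.91 RPKM in unstimulated KO. In WT it had 16.5 and 14.6 RPKM under IL-1α, against 7.53 RPKM unstimulated. The groups did not overlap in either genotype, and the second KO library stood highest. On the log2 scale the response was 1.06 (95% interval 0.42 to 1.71, limma adjusted p = 0.659) in KO and 0.99 (0.35 to 1.64, adjusted p = 0.164) in WT.

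REL, the c-Rel subunit best known from lymphocytes (chr2:61108630-61155291, plus strand), had the lowest mean of the 10 under IL-1α. It had 5.76 and 4.66 RPKM in the KO IL-1α libraries, against 4.80 RPKM in unstimulated KO, and 2.92 and 4.65 RPKM in the WT IL-1α libraries, against 2.38 RPKM in unstimulated WT. In KO the unstimulated library lay between the 2 IL-1α libraries, and the log2 difference was 0.10 (95% interval -0.67 to 0.87). In WT both IL-1α libraries lay above the unstimulated one, with a log2 difference of 0.54 (-0.23 to 1.31, limma adjusted p = 0.418). The WT pair itself differed by 0.59 on the log2 scale, and 5.51% of all genes differed at least as far in that pair.

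NFKB1, the gene of p105 and p50 (chr4:103423055-103538459, plus strand), had 47.0 and 63.1 RPKM in the KO IL-1α libraries, against 26.8 RPKM in unstimulated KO. The WT IL-1α libraries had 50.7 and 58.6 RPKM, against 21.8 RPKM in unstimulated WT. Every IL-1α library lay above both unstimulated libraries, by 1.75-fold to 2.69-fold within its genotype. On the log2 scale it responded by 1.01 ± 0.24 (SE, limma adjusted p = 0.608) in KO and 1.30 ± 0.24 (limma adjusted p = 0.112) in WT. An antisense gene, LOC105377621, overlaps NFKB1, and whether reads were counted by strand is not given in the sources used here. It was listed at 0.354 to 1.10 RPKM.

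NFKB2, the gene of p100 and p52 (chr10:104154335-104162286, plus strand), had 66.4 and 103 RPKM in the KO IL-1α libraries, against 32.5 RPKM in unstimulated KO. The WT IL-1α libraries had 83.9 and 75.7 RPKM, against 27.2 RPKM in unstimulated WT. The groups were clearly apart in both genotypes, and the KO pair was the more spread one. Its log2 response was 1.33 (95% interval 0.64 to 2.03, limma adjusted p = 0.453) in KO and 1.53 (0.84 to 2.23, adjusted p = 0.113) in WT. The 2 KO libraries differed by 0.63 on the log2 scale, and 13.5% of all genes differed at least as far in that pair.

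NFKBIA, which encodes IκBα, the inhibitor whose loss and resynthesis sets the timing of canonical NF-κB activity (chr14:35870716-35873960, minus strand), had the largest response of the 10. It had 95.5 and 139.7 RPKM in the KO IL-1α libraries, against 28.0 RPKM in unstimulated KO. The WT IL-1α libraries had 119.7 and 95.1 RPKM, against 29.9 RPKM in unstimulated WT. The lowest IL-1α library was thus 3.18-fold above its unstimulated library and the highest 4.98-fold. The response was 2.02 on the log2 scale (95% interval 1.33 to 2.72, limma adjusted p = 0.116) in KO and 1.82 (1.13 to 2.51, adjusted p = 0.0831) in WT.

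NFKBIB, which encodes IκBβ, an inhibitor known for slower turnover (chr19:39390340-39399534, plus strand), showed little difference. It had 15.2 and 14.6 RPKM in the KO IL-1α libraries, against 13.6 RPKM in unstimulated KO, and 20.2 and 16.6 RPKM in the WT IL-1α libraries, against 16.6 RPKM in unstimulated WT. Log2 differences were 0.12 (95% interval -0.38 to 0.63) in KO and 0.14 (-0.36 to 0.64) in WT. With a trend on transcript length removed, the WT value was 0.62, still below the threshold. The deposited NFKBIB transcript is the shortest of the 10, at 986 bases.

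NFKBIE, which encodes IκBε (chr6:44225903-44233525, minus strand), had 6.48 and 5.65 RPKM in the KO IL-1α libraries, against 4.08 RPKM in unstimulated KO. The WT IL-1α libraries had 7.85 and 7.46 RPKM, against 4.90 RPKM in unstimulated WT. The IL-1α libraries were 1.39-fold to 1.6-fold above the unstimulated ones, with a narrow range. The log2 difference was 0.52 ± 0.22 (SE, limma adjusted p = 1) in KO and 0.59 ± 0.22 (limma adjusted p = 0.237) in WT.

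NFKBIZ, which encodes IκBζ (chr3:101546834-101579869, plus strand), had 12.5 and 14.6 RPKM in the KO IL-1α libraries, against 4.34 RPKM in unstimulated KO. The WT IL-1α libraries had 18.4 and 16.8 RPKM, against 5.95 RPKM in unstimulated WT. The folds over the unstimulated library lay close together, between 2.83 and 3.35. Log2 responses were 1.53 (95% interval 1.03 to 2.04, limma adjusted p = 0.103) in KO and 1.49 (0.98 to 1.99, adjusted p = 0.0645) in WT. NXPE3 overlaps it on the same strand at 0.760 to 1.23 RPKM.

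BCL3, a nuclear IκB that binds p50 and p52 homodimers (chr19:45251978-45263301, plus strand), had 9.62 and 10.9 RPKM in the KO IL-1α libraries, against 7.75 RPKM in unstimulated KO. The WT IL-1α libraries had 13.1 and 8.97 RPKM, against 5.26 RPKM in unstimulated WT. The IL-1α libraries of the genotypes overlapped, while the unstimulated KO library lay above the unstimulated WT one. Its log2 difference was 0.38 (95% interval -0.28 to 1.04) in KO and 0.98 (0.32 to 1.64, limma adjusted p = 0.174) in WT. The small RNA gene MIR8085 lies within BCL3 on the same strand.

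In KO, 0 of the 10 members passed the limma test of the IL-1α response, where 0.0696% of all genes passed as higher (9 genes) and 0% as lower. At unadjusted p under 0.05, 5 members were higher and 0 lower in KO, against a background of 2.53% of genes higher and 1.05% lower, and limma with voom weights also called 0. In WT, 0 of 10 passed, against 0.201% of genes as higher (26) and 0.0155% as lower (2). At unadjusted p under 0.05, 7 members were higher and 0 lower in WT, against 4.69% of genes higher and 13.4% lower, and voom weights called 0. Both IL-1α libraries lay above the unstimulated library for 9 of 10 members in KO (REL excepted), against 27.8% of all genes, and for 10 of 10 in WT, against 27.5%. Both lay below it for 0 of 10 in each genotype, against 36.4% of all genes in KO and 54.3% in WT. For NFKBIB in WT this rests on 16.58 RPKM in the second IL-1α library against 16.55 RPKM in the unstimulated one. The median log2 difference of the 10 members was 0.76 in KO and 0.99 in WT, beside -0.02 and -0.14 over all genes tested.

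With both genotypes averaged in the same fit (4 IL-1α against 2 unstimulated libraries, a comparison added after the data were seen), 3 of 10 members rose, against 0.634% of all genes called as higher and 0.116% as lower. At unadjusted p under 0.05, 8 members were higher and 0 lower, against 5.33% and 10.3% of genes. NFKBIA rose by 1.92 ± 0.20 (SE) on the log2 scale (limma adjusted p = 0.0208), NFKBIZ by 1.51 ± 0.15 (adjusted p = 0.0174) and NFKB2 by 1.43 ± 0.20 (adjusted p = 0.0471). For each of them all 4 IL-1α libraries lay above both unstimulated libraries. NFKB1 (1.15, adjusted p = 0.0546) and RELB (1.03, adjusted p = 0.0945) lay just outside. BCL3 had 0.68, NFKBIE 0.56, RELA 0.36, REL 0.32 and NFKBIB 0.13, with limma adjusted p between 0.197 and 0.676. All 4 IL-1α libraries lay above both unstimulated libraries for 8 of the 10, all but REL and NFKBIB, against 7.14% of genes, and below them for 0, against 13.2%. The 3 calls did not hold without any one of the 4 IL-1α libraries, with log2 values of 1.78 to 2.06 for NFKBIA, 1.46 to 1.56 for NFKBIZ and 1.28 to 1.59 for NFKB2 and adjusted p of 0.0511 to 0.612. Without a filter on low values they ended at adjusted p = 0.168 for NFKBIA, 0.0729 for NFKBIZ and 0.208 for NFKB2, and NFKB2 also missed the threshold with a pseudocount of 0.1 RPKM (adjusted p = 0.0571) or no variance trend (adjusted p = 0.0745).

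**Figure D2:**
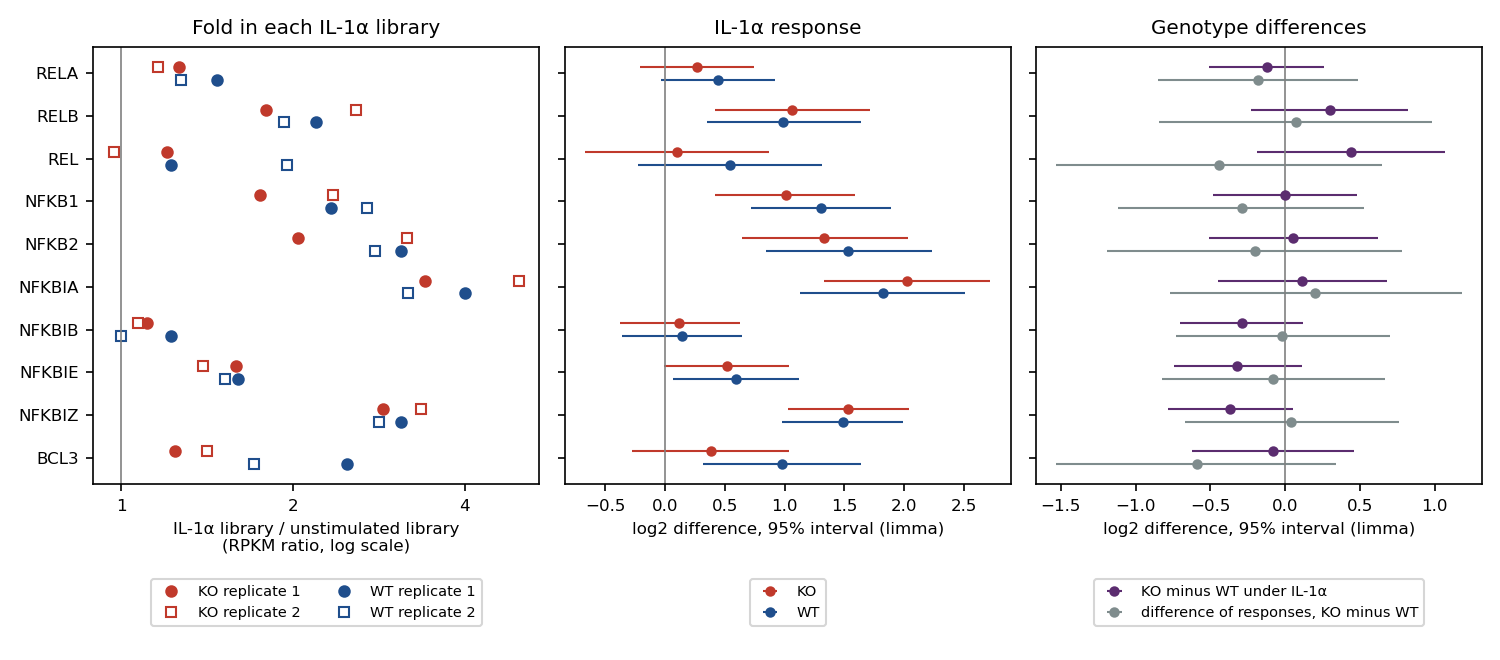
Left, the RPKM ratio of each IL-1α library to the unstimulated library of its genotype (log axis). Middle, the limma log2 difference of IL-1α from unstimulated in KO and WT, and right, the log2 difference of KO from WT under IL-1α with the difference of the 2 responses (KO minus WT); lines are 95% intervals. NFKBIA has the largest ratios, 3.18 to 4.98, and every interval of the right panel includes 0.

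The precursor genes made up more of the family in every IL-1α library than in either unstimulated library. NFKB1 and NFKB2 together made up 64.8% and 72.1% of the summed RPKM of the 5 subunits in the KO IL-1α libraries, against 56.6% in unstimulated KO. In WT the share was 67.7% and 69.8% under IL-1α, against 54.8% unstimulated. RELA made up 22.8% and 15.9% in the KO IL-1α libraries, against 30.3% in unstimulated KO, and 22.5% and 20.2% in the WT IL-1α libraries, against 34.2% in unstimulated WT. All IL-1α libraries thus had a lower RELA share than both unstimulated libraries. The shares are descriptions with no test. REL stayed between 1.47% and 4.58% and RELB between 7.56% and 9.98% of the sum.

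The classical IκBs summed to 0.669 and 0.694 of the subunit RPKM in the KO IL-1α libraries, against 0.436 in unstimulated KO, and to 0.743 and 0.619 in the WT IL-1α libraries, against 0.574 in unstimulated WT. Most of that sum was NFKBIA, which made up 81.5% and 87.3% of the classical IκB sum in the KO IL-1α libraries, against 61.3% in unstimulated KO, and 81.0% and 79.8% in the WT IL-1α libraries, against 58.2% in unstimulated WT. The ratio of NFKBIA to RELA was 2.39 and 3.80 in the KO IL-1α libraries, against 0.883 in unstimulated KO, and 2.67 and 2.45 in the WT IL-1α libraries, against 0.978 in unstimulated WT. The inhibitor's transcript was therefore at about the level of its main client's at rest and well above it under IL-1α in both genotypes. The nuclear IκBs summed to 0.126 and 0.111 of the subunit RPKM in the KO IL-1α libraries, against 0.115 in unstimulated KO, and to 0.158 and 0.134 in the WT IL-1α libraries, against 0.125 in unstimulated WT.

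**Figure D3:**
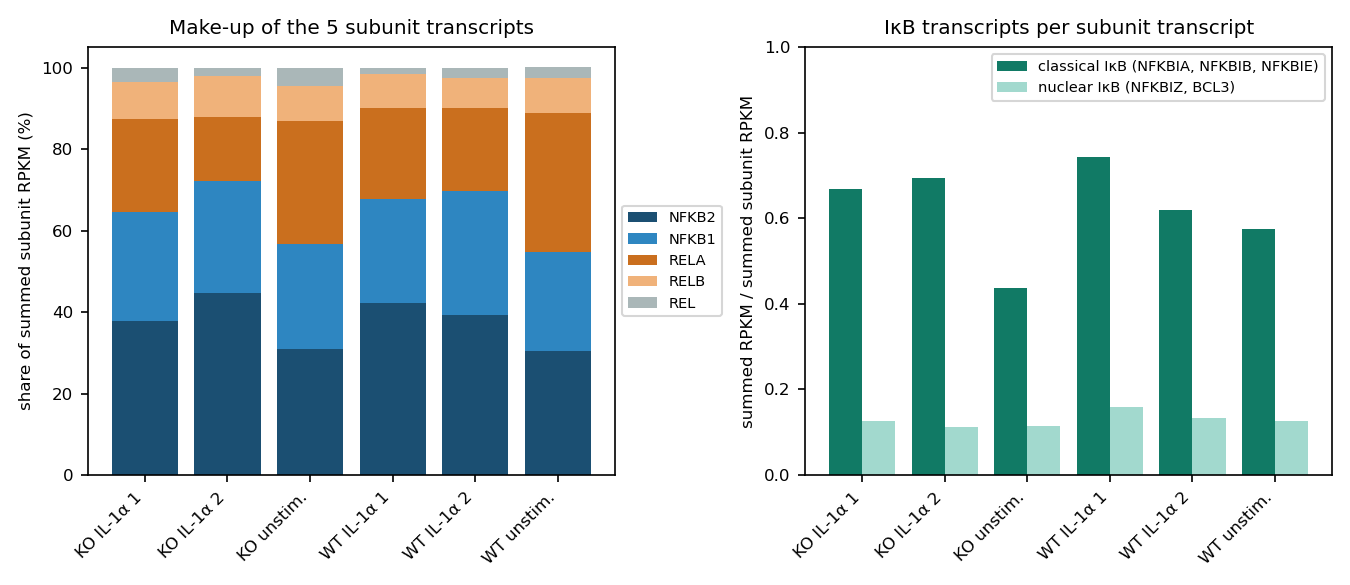
Left, share of each subunit in the summed RPKM of the 5 subunits (percent) per library. Right, summed RPKM of the classical and of the nuclear IκBs divided by the subunit sum. The NFKB1 and NFKB2 segments together reach 64.8% to 72.1% in the IL-1α libraries and 54.8% to 56.6% in the unstimulated ones, and the classical IκB bar is lowest in unstimulated KO (0.436).

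By level, NFKBIA led under IL-1α with 118 ± 31.3 RPKM in KO and 107 ± 17.4 RPKM in WT (SD, n = 2 each), followed by NFKB2 with 84.7 ± 25.9 RPKM in KO and 79.8 ± 5.78 RPKM in WT. NFKB1 came next with 55.0 ± 11.4 RPKM in KO and 54.6 ± 5.54 RPKM in WT, and RELA after it with 38.3 ± 2.23 RPKM in KO and 41.8 ± 4.20 RPKM in WT. The libraries of NFKBIA and NFKB2 overlapped in KO and not in WT, and NFKB1 and RELA did not overlap in either genotype. The next places were held by RELB, NFKBIB and NFKBIZ, which ran from 12.5 to 23.0 RPKM. RELB was above both others in KO and below both in WT, and NFKBIB and NFKBIZ overlapped in WT. BCL3, NFKBIE and REL came last in that order of means in both genotypes, with NFKBIE and REL overlapping in KO. Unstimulated, RELA, NFKBIA, NFKB2 and NFKB1 formed the upper group with 26.8 to 32.5 RPKM in KO and 21.8 to 30.6 RPKM in WT.

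KO and WT were compared under IL-1α with 2 libraries each, the comparison of genotypes named in the design of the series. None of the 10 members passed (limma, 0 of 10, and 0 with voom weights), against 0.0464% of all genes called as higher in KO and 0.108% as lower. At unadjusted p under 0.05 there were also 0 members, against 9.97% of genes higher in KO and 4.93% lower. NFKBIZ had the lowest log2 difference, -0.37 (95% interval -0.78 to 0.05, adjusted p = 0.371). NFKBIE had -0.32 (-0.74 to 0.11) and NFKBIB -0.29 (-0.70 to 0.12). Both KO libraries lay below both WT libraries for these 3 of the 10, where 16.3% of all genes did so. REL was the 1 member with both KO libraries above both WT libraries, as 32.4% of all genes were, at 0.44 (-0.19 to 1.07, adjusted p = 0.466). That order rests on 4.66 RPKM in the second KO library against 4.65 RPKM in the second WT library, whose counting intervals overlap. RELB had 0.30 (-0.23 to 0.82), NFKBIA 0.11 (-0.45 to 0.68), RELA -0.12 (-0.51 to 0.26), BCL3 -0.08 (-0.62 to 0.46), NFKB2 0.05 (-0.51 to 0.62) and NFKB1 -0.00 (-0.48 to 0.48). The intervals of NFKB1 and RELA thus leave differences of up to 0.48 and 0.51 on the log2 scale undetected.

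The difference between the 2 responses was tested as the genotype by IL-1α interaction, which 0% of all genes passed. The 10 members also had 0 calls with limma and 0 with voom weights, and adjusted p of 0.966 to 0.997. At unadjusted p under 0.05 there were 0 members, against 3.76% of genes with a higher response in KO and 0.627% with a lower one. BCL3 had the widest gap, with a KO response lower than the WT one by 0.59 on the log2 scale (-0.59, 95% interval -1.53 to 0.34). REL had -0.44 (-1.53 to 0.65) and NFKB1 -0.29 (-1.12 to 0.53). NFKBIZ had 0.04 (-0.67 to 0.76) and NFKBIA 0.20 (-0.77 to 1.18), so differences of up to 0.76 and 1.18 on the log2 scale could go undetected in them.

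Without stimulation each genotype is 1 library, so the comparison has no replicate check and ratios of reads carry counting error only. By the log2(RPKM + 0.5) values 0 of 10 members were at least 2-fold apart, against 2.42% of genes as higher in KO and 4.10% as lower. REL was the most different, with 4.80 RPKM in KO against 2.38 RPKM in WT, a read ratio of 2.01 (95% interval 1.78 to 2.29). BCL3 had a ratio of 1.47 (1.23 to 1.77), NFKB1 1.23 (1.16 to 1.31), NFKB2 1.20 (1.12 to 1.27), RELB 1.18 (1.03 to 1.36) and RELA 1.04 (0.973 to 1.11). On the other side of 1 stood NFKBIZ at 0.730 (0.640 to 0.834), NFKBIB at 0.824 (0.708 to 0.960), NFKBIE at 0.832 (0.701 to 0.990) and NFKBIA at 0.938 (0.860 to 1.02). The intervals of RELA and NFKBIA include 1. The 7 keratinocyte markers summed to 1880 and 2020 RPKM in the KO IL-1α libraries and 2320 RPKM in unstimulated KO, against 2610 and 2520 RPKM in the WT IL-1α libraries and 3290 RPKM in unstimulated WT. Most of that sum is KRT14 and KRT5. Without stimulation IVL had 36.8 RPKM in KO against 130 RPKM in WT, KRT10 40.1 against 119 RPKM and KRT1 1.69 against 3.72 RPKM. TP63, a regulator of basal keratinocytes, lay the other way, with 42.8 RPKM in KO against 26.6 RPKM in WT. So did CDH1, with 105 RPKM in KO against 96.8 RPKM in WT. Whether these differences bear on the members was not tested.

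Other genes of the pathway were read by list. Of the 3 other IκB-like genes, NFKBID had 2.22 and 2.76 RPKM in the KO IL-1α libraries, against 1.64 RPKM in unstimulated KO, and 2.19 and 1.87 RPKM in the WT IL-1α libraries, against 2.02 RPKM in unstimulated WT. ANKRD42 had log2 differences of -0.24 in KO and 0.07 in WT. NFKBIL1 is annotated at 7 places in the table, and the 0.039 to 0.173 RPKM listed for it is not read here as its level. For the counts at unadjusted p under 0.05 in the lists that follow, the background over all genes was 2.53% higher and 1.05% lower in KO, and 4.69% higher and 13.4% lower in WT.

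Of the 12 IκB kinase and upstream kinase genes, 0 passed in KO and 0 in WT, with 2 and 3 higher at unadjusted p under 0.05, and their median log2 difference was 0.15 in both. The most abundant were TAB2, an adaptor of the kinase TAK1, with 0.32 in KO and 0.54 in WT, and CHUK, which encodes IKKα, with 0.32 and 0.03. IKBKE, a kinase of the IKK-related group named here after its values were seen, had 16.7 and 21.8 RPKM in the KO IL-1α libraries, against 8.18 RPKM in unstimulated KO. In WT it had 17.3 and 19.8 RPKM under IL-1α, against 8.36 RPKM unstimulated. Its groups did not overlap, and it did not pass (limma adjusted p = 0.347 in KO and limma adjusted p = 0.135 in WT).

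A list of 10 genes covers the ubiquitin ligase that marks phosphorylated IκB for degradation, conjugating enzymes and the modifier NEDD8. Of these, 0 passed in KO and 0 in WT, with medians of 0.07 and -0.17. At unadjusted p under 0.05 there were 0 in KO and 2 of 10 lower in WT, where 13.4% of all genes were. NEDD8, a ubiquitin-like modifier of cullins, had 0.05 in KO and -0.59 in WT. SKP1, the adaptor of the ligase, had -0.05 in KO and -0.22 in WT. Of the 5 genes that restrain the non-canonical kinase NIK, BIRC3, the ubiquitin ligase cIAP2, passed in both genotypes. It had 33.8 and 36.7 RPKM in the KO IL-1α libraries, against 6.96 RPKM in unstimulated KO, and 55.8 and 59.3 RPKM in the WT IL-1α libraries, against 6.43 RPKM in unstimulated WT. It rose by 2.26 in KO (limma adjusted p = 0.0387) and by 3.07 in WT (adjusted p = 0.00773). KO lay below WT under IL-1α by a log2 difference of -0.70 (95% interval -1.07 to -0.33, limma adjusted p = 0.179). The difference of the responses was -0.81 (-1.45 to -0.17, limma adjusted p = 0.966), and neither passed. The most abundant of the 5, BIRC2 (0.72 in KO, 0.79 in WT) and TRAF2 (0.02 in KO, 0.19 in WT), did not pass.

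The 13 cofactors and modifiers of RELA had medians of -0.02 in KO and 0.13 in WT. In limma 0 passed in each genotype, with 0 at unadjusted p under 0.05 in KO and 3 of 13 lower in WT, where 13.4% of all genes were. RPS6KA4, the kinase MSK2, had -0.02 in KO and -0.18 in WT, and PDLIM2, a nuclear ubiquitin ligase for RELA, had -0.11 in KO and -0.47 in WT. Of the 8 regulators of NFKBIZ mRNA stability, 0 passed in either genotype alone, with 2 higher in each at unadjusted p under 0.05. The most abundant, ZFP36L1 and ZFP36L2, which bind AU-rich elements, had 0.29 and -0.17 in KO, and 0.33 and -0.35 in WT. ZC3H12A, the ribonuclease Regnase-1, had 23.9 and 39.8 RPKM in the KO IL-1α libraries, against 4.37 RPKM in unstimulated KO, and 40.6 and 33.8 RPKM in the WT IL-1α libraries, against 7.03 RPKM in unstimulated WT. It rose by 2.50 with the genotypes averaged (limma adjusted p = 0.0149).

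Of the 12 epidermal genes associated with IκBζ, 8 reached 1 RPKM in a library and were tested. IL36G and CCL20 reached it only in IL-1α libraries, so no summary of the list's IL-1α response is given. LCN2, an iron-binding antimicrobial protein, rose by 2.89 in KO (limma adjusted p = 0.0387) and 2.29 in WT (limma adjusted p = 0.0446). S100A9, a subunit of calprotectin, rose in KO. It had 3.51 and 4.29 RPKM in the KO IL-1α libraries, against 0 reads in unstimulated KO, at least 26.0-fold higher with 3 reads as the floor (limma adjusted p = 0.03). In WT the protease inhibitor PI3 rose by 4.58 (limma adjusted p = 0.0289) and the chemokine CCL20 rose as well (adjusted p = 0.0281). S100A9 had 10.2 and 9.71 RPKM in the WT IL-1α libraries, against 7.32 RPKM in unstimulated WT (0.42, limma adjusted p = 0.403). With the genotypes averaged LCN2, S100A9, PI3 and CCL20 passed. IL36G, a cytokine gene, also passed (limma adjusted p = 0.0253), as did IL23A (1.89, limma adjusted p = 0.0471). For S100A9 the averaged groups overlapped, as its KO IL-1α libraries lay below unstimulated WT. CCL20 and IL36G entered the test only through IL-1α libraries. Between KO and WT under IL-1α limma called 0 of the 8 genes, with 4 lower at unadjusted p under 0.05 (4.93% of all genes). LCN2 had 161 and 150.2 RPKM in KO, against 471 and 342 RPKM in WT (log2 difference -1.37, limma adjusted p = 0.0949). PI3 had -1.29 and S100A9 -1.25. The unstimulated KO library was already lower for 4 of the 8 by at least 2-fold, as it was for 4.1% of all genes. Among them were LCN2, with 20.6 RPKM in KO against 81.5 RPKM in WT, and S100A9, with 0 reads in KO against 7.32 RPKM in WT. The others, S100A7 and S100A8, rested on 6 and 2 reads in unstimulated KO. IL36G and CCL20 were under 1 RPKM in both unstimulated libraries, so they could not be counted as 2-fold apart there. The mean IL-1α fold of LCN2 was 7.55 in KO and 4.98 in WT.

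Of 24 textbook NF-κB targets, 23 were tested. BCL2A1, IER3, CXCL2, CXCL10, CCL20 and CSF2 reached 1 RPKM only in IL-1α libraries, so no summary of the list's IL-1α response is given. IER3 is annotated at 6 places, so its listed value is not read as its level. In KO BIRC3 passed, as did CXCL8, the neutrophil attractant, which rose by 4.00 (limma adjusted p = 0.0469). Of all genes, 0.0696% passed as higher in KO, 0.201% in WT and 0.634% with the genotypes averaged. In WT BIRC3, CXCL8 (3.76), the ubiquitin editor TNFAIP3 (3.05), the superoxide dismutase SOD2 (2.44) and the chemokine CCL5 (4.45) passed. The cytokine CSF2 (2.66), the chemokine CCL20 and the survival gene BCL2A1, with 0 reads in unstimulated WT, also passed. CSF2, CCL20 and BCL2A1 entered the test only through their IL-1α libraries. The most abundant, the protease PLAU (1.16 in KO, 1.29 in WT) and the proteoglycan SDC4 (1.01 in KO, 1.15 in WT), passed only with the genotypes averaged (limma adjusted p = 0.0418 for PLAU, limma adjusted p = 0.0325 for SDC4). The TNFAIP3-binding protein TNIP1 (1.36, limma adjusted p = 0.0253), the chemokine CXCL1 (3.47, limma adjusted p = 0.0202) and the cytokine IL1B (2.17, limma adjusted p = 0.0203) also passed only there. The targets named above as passing in KO or WT passed there too. Between KO and WT under IL-1α limma called 0 of the 23, and the log2 differences ran from -1.98 for CCL5 to 1.29 for CD83. At unadjusted p under 0.05 in limma 4 were higher and 6 lower (9.97% and 4.93% of all genes). CXCL10 among the higher and BCL2A1 among the lower entered the test only through IL-1α libraries. In KO no gene of the whole table passed without any one of the 4 IL-1α libraries, and in WT, as with the genotypes averaged, none did without either WT IL-1α library, the list genes named here included.

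**Figure D4:**
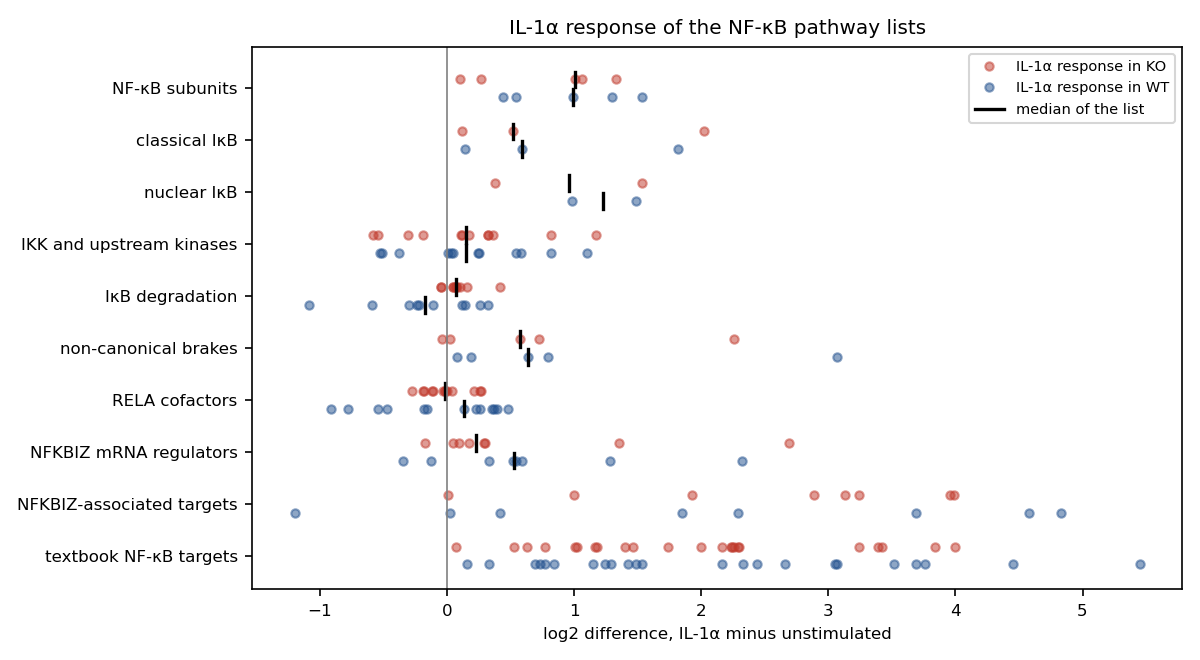
Log2 difference of IL-1α from unstimulated (horizontal axis, limma) for the members and the pathway lists. Points are genes tested, KO above WT in each row, and ticks are list medians, left out for the target lists at the bottom, which hold genes that passed the filter on low values only in IL-1α libraries. The subunit medians are 1.01 in KO and 0.99 in WT, and those of the kinases 0.15 in both.

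The transcripts most like NFKBIA over the 6 libraries, among 1865 genes that reach 5 RPKM in a group and vary by at least 1 on the log2 scale, were the protease gene PLAU (Pearson r = 0.988), the interferon-γ receptor gene IFNGR1 (r = 0.988) and NFKB2 (r = 0.986). Those most like NFKBIZ were CXCL8 (r = 0.996), the apoptosis inhibitor CFLAR (r = 0.996) and ZC3H12A (r = 0.989). RELB was closest to the cytokine subunit IL23A (r = 0.995), the integrin ITGA5 (r = 0.994) and the p38 kinase activator MAP2K3 (r = 0.992). These correlations run over 6 libraries, 4 with IL-1α and 2 without, and they carry no test. CFLAR had 16.8 and 18.1 RPKM in the KO IL-1α libraries, against 6.37 RPKM in unstimulated KO, and 23.3 and 20.0 RPKM in the WT IL-1α libraries, against 7.51 RPKM in unstimulated WT, the same order of groups as NFKBIZ. IL23A had 7.67 and 14.5 RPKM in the KO IL-1α libraries, against 2.40 RPKM in unstimulated KO, and 8.95 and 7.50 RPKM in the WT IL-1α libraries, against 1.90 RPKM in unstimulated WT. As with RELB, its second KO library stood highest.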

How the data were processed

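RNA from 6 HaCaT libraries was sequenced with a stranded mRNA kit, per the labels' protocols. Per the submitters' processing notes the tools were bcl2fastq 2.20.0.422, STAR and HOMER, the last ones without a version, on hg19. The authors deposited RPKM from HOMER's exon counting, 1 line per gene, in columns also headed FPKM per the file headers. The strand setting is not given in the sources used here. Genes annotated at several places can be listed near 0 in such a table. Depth was recovered as the read number that made values of 0.02 to 1 RPKM of transcripts of 300 to 6000 bases whole (tolerance 0.1 read, 100% whole). Reads computed back from these depths gave the counting intervals and the voom weights.

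Genes with at least 1 RPKM in 1 library entered a limma fit (version 3.58.1 under R 4.3.3) of log2(RPKM + 0.5) by group, with a variance trend and Benjamini-Hochberg adjustment over 12925 genes. The fit was tested on simulated data. Poisson and read-ratio intervals (95%) cover counting error only. The members and lists were chosen with earlier results of these data known. From each list the genes passing in the comparisons described and the 2 most abundant were named, with others said to be chosen after their values were seen or given as range ends or as genes reaching 1 RPKM only under IL-1α, and for NFKBIA, NFKBIZ and RELB the 3 genes of highest correlation. Alternatives covered the pseudocount, the low-value filter, the variance trend, median-of-ratios rescaling, a length trend, voom weights, a replicate block and leaving out each IL-1α library.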

Additional observations from a re-analysis of the deposited data

How the results depend on the processing

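Over 13 settings 0 members passed in KO, and in WT NFKBIA (2.15) and NFKBIZ (1.51) passed only with the length trend removed (limma adjusted p = 0.028 for NFKBIA, limma adjusted p = 0.0363 for NFKBIZ). Counts of genes passing moved by over 1.5 times as follows. The KO response (9 genes) gave 5 with a pseudocount of 1, 65 with no low-value filter, 4 with no variance trend, 21 with the length trend removed, 2 with voom weights and 18 with a replicate block. The WT response (28) gave 49 with no filter, 48 with median-of-ratios rescaling, 96 with the length trend removed, 15 with voom and 81 with the replicate block. KO against WT under IL-1α (20) gave 7 with a pseudocount of 0.1, 0 with no filter and 0 with no variance trend, 40 with the length trend removed, 56 with voom and 58 with the block. The interaction (0) gave 87 with no filter. The average of both genotypes (97) gave 176 with the length trend removed, 161 with voom and 149 with the block. Unstimulated, 843 genes were 2-fold apart and 2900 at 1.5-fold. Without 1 IL-1α library, counts were 0 to 0 for KO, 0 to 46 for WT, 0 to 0 for KO against WT and 0 to 48 for the average. The cause of these moves was not tested.

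The labels do not say whether the replicate numbers pair the libraries. Deviations within the KO and WT pairs of IL-1α libraries correlated at 0.0086 over the genes tested, which does not settle it. With the replicate block NFKB1 passed in the average of both genotypes (1.15, adjusted p = 0.0244), and no other call on a member moved. NFKB1 also passed there with rescaling (1.23), the length trend removed (1.17) and voom (1.19), as did RELB with the length trend removed (1.14). NFKB2 missed it with a pseudocount of 0.1 (adjusted p = 0.0571) and with no variance trend (adjusted p = 0.0745).

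The 0 members of KO against WT under IL-1α at unadjusted p under 0.05 became 3 with the length trend removed, 1 with rescaling and 1 without KO IL-1α replicate 1, and the 0 of the interaction became 1 with the length trend removed. Signs that turned were all of uncalled values. KO against WT under IL-1α turned for NFKB2 with rescaling (-0.05) and the length trend removed (-0.05), and for NFKB1 with voom (0.00). The interaction turned for RELB with rescaling (-0.06) and the length trend removed (-0.10), for NFKBIZ with rescaling (-0.08) and for NFKBIA with the length trend removed (-0.08). Without 1 IL-1α library the KO response of REL ran from -0.04 to 0.24. KO against WT ran from -0.21 to 0.21 for NFKB1, -0.26 to 0.37 for NFKB2, -0.16 to 0.39 for NFKBIA and -0.34 to 0.18 for BCL3. The interaction ran from -0.52 to 0.11 for NFKB2, -0.19 to 0.33 for RELB, -0.07 to 0.48 for NFKBIA, -0.15 to 0.12 for NFKBIB, -0.17 to 0.01 for NFKBIE and -0.06 to 0.15 for NFKBIZ. The median of all genes in the WT response was -0.01 with rescaling, against -0.14 without it. A group left with 1 library is assumed to vary like the other pair. The fewest reads behind a member, 163, were those of BCL3 in unstimulated WT.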
